A study of Mus musculus with 2 samples.

Results

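The genes of histamine handling measured in mouse hippocampal cells were examined across cell classes in a wild-type and a Pigv341E homozygous knock-in library. The members are 6 of the 30223 genes in the deposited table, taken by name: Hdc, Slc18a2, Hnmt, Hrh1, Hrh2 and Hrh3. They were chosen by the values of Hdc in these cells, which had already been seen to differ between the libraries, so its values are a description and carry no test, and the question was whether any other gene of histamine handling differed as well. Both groups are hippocampus of strain C57Bl.6/J. The knock-in mice are homozygous for an allele of Pigv made by CRISPR-Cas9 editing, and the controls are labelled wild-type. Pigv encodes a mannosyltransferase that acts in building the GPI anchor, the glycolipid by which some proteins are held on the outer face of the plasma membrane. Cells from 8 hippocampi of 4 mice were pooled per genotype into 1 library, both made with the 10x Genomics version 3 droplet chemistry and sequenced on the same lane. Genotype therefore cannot be told apart from library, no difference below has a test, and every interval covers counting error only.

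Histamine is made from the amino acid histidine by histidine decarboxylase, the product of Hdc. In the brain it is released by neurons of the tuberomammillary nucleus of the hypothalamus, whose axons reach the hippocampus, and it is also made by mast cells. The vesicular monoamine transporter encoded by Slc18a2 loads it into vesicles, and histamine N-methyltransferase, the product of Hnmt, inactivates it in the brain. Cells sense it through G protein-coupled receptors, of which Hrh1 couples to Gq, Hrh2 to Gs and Hrh3, an inhibitory receptor often found on nerve endings, to Gi and Go.

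On GRCm38 with the GENCODE M21 annotation, Hdc lies on chromosome 2 from 126593667 to 126619299, Hnmt on chromosome 2 from 24002910 to 24049394 and Hrh3 on chromosome 2 from 180099465 to 180104488, all on the minus strand. Hrh1 lies on chromosome 6 from 114397936 to 114483296, Hrh2 on chromosome 13 from 54192129 to 54236180 and Slc18a2 on chromosome 19 from 59260896 to 59296012, all on the plus strand. The sequence before the RefSeq start of Hdc is shown because Hdc is the member whose transcript differed between the libraries. The RefSeq start lies at 126618678, 621 bases inside the GENCODE gene, so the sequence lies within that gene. It is from build GRCm38.p6, chr2:126618679-126618928 on the minus strand, 5′ to 3′, with the GC box letters GGGCGG in capitals:

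Hdc, 250 bases before the start: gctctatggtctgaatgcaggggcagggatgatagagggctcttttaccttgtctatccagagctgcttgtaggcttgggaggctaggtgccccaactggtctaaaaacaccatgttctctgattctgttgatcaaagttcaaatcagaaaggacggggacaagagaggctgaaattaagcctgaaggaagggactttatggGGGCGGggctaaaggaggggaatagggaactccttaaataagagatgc

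The GC box letters begin 48 bases before the RefSeq start site. Motifs were searched on both strands of the 300 bases from 250 before to 50 after the start. The GC box was present in the window of Hdc, and 35.7% of 32851 mouse promoter windows of the same length hold it. The TATA box, searched as TATAAA, had no match, and 13.6% of the windows hold it. The CCAAT box had no match either, and 37.4% of the windows hold that motif. Neither the cyclic AMP response element, searched as the letters TGACGTCA and present in 1.79% of windows, nor the E-box, searched as the letters CACGTG and present in 7.15%, had a match. The libraries measure transcripts and hold no value for this region.

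There were 7094 wild-type and 8836 knock-in cells, with median totals of deposited values per cell of 8631 and 9608 and median detected genes of 3122 and 3736. Cell barcodes common to both libraries numbered 28, or 0.395% of wild-type and 0.317% of knock-in cells. The deposited values are whole numbers corrected for depth, in which a 1 may be filled in, so a gene counts as detected in a cell at a value of 2 or more. A level is the sum of a gene's values per 10000 of all values. Clustering without the members and their pathway genes gave 37 clusters, of which 28 took a name from marker genes, among them pyramidal-like and dentate granule-like clusters of the hippocampus. Classes were compared where both libraries had 50 cells or more, which 10 did. They ranged from pyramidal-like cells, with 1496 wild-type and 2066 knock-in cells, to Cajal-Retzius-like cells, with 63 and 101.

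Hdc transcripts were scarce in the wild-type library and present in nearly every cell of the knock-in library. Of the wild-type cells, 4626 had an Hdc value of 0, 2315 had a value of 1, 144 had a value of 2 and the few others lay between 3 and 7. In the knock-in library 100 cells had a value of 0 and 391 a value of 1, the median was 7, the quartiles were 4 and 11, and the highest value was 37. The libraries overlapped at values of 0 to 7, and no wild-type cell lay above them. The share of cells at 2 or more was 2.16% (95% interval 1.83 to 2.52) in the wild-type library and 94.4% (93.9 to 94.9) in the knock-in library. The level of Hdc was 0.417 per 10000 for wild-type and 8.67 for knock-in cells. With values of 1 left out, it was 0.0509 and 8.62, so that values of 1 made up most of the wild-type level and little of the knock-in level.

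**Figure D1:**
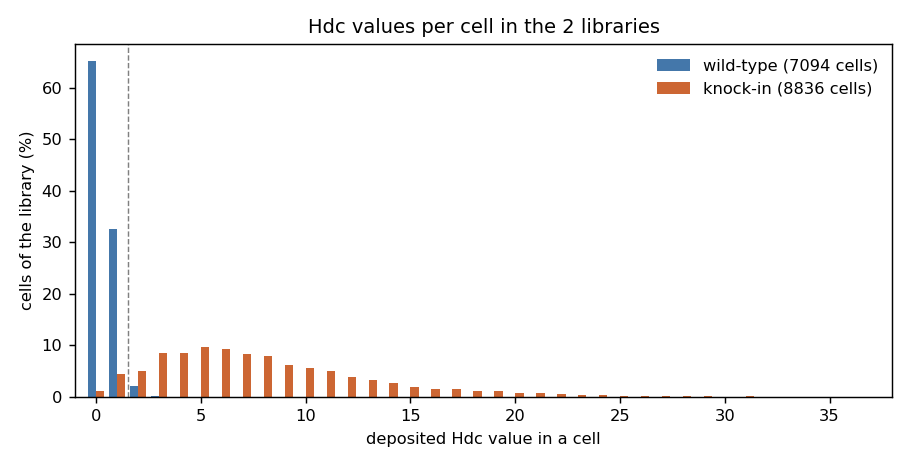
Deposited Hdc value per cell (horizontal axis) against the percentage of a library's cells at that value (vertical axis), for 7094 wild-type and 8836 knock-in cells; the dashed line separates values of 1 from values of 2 or more. Wild-type cells sit at 0 and 1, and knock-in cells spread around a median of 7.

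Hdc was called in all 10 classes compared, neurons and glia alike, and higher among knock-in cells in each. Called means a share of cells at 2 or more that differed at least 2-fold, with at least 0.5% and 10 cells in the higher library. Over all genes 4.56% of pairs of gene and class were called in this direction, and since Hdc was selected on this difference, nothing is read from its count. The share of knock-in cells at 2 or more was 99.6% in astrocyte-like, 99.0% in Cajal-Retzius-like, 98.4% in fibroblast-like, 97.5% in dentate granule-like, 96.7% in mature oligodendrocyte-like, 95.7% in pyramidal-like and 95.7% in interneuron-like cells. It was 90.4% in oligodendrocyte precursor-like, 85.5% in microglia-like and 69.2% in choroid plexus-like cells. The wild-type share lay between 0 of 1496 pyramidal-like cells, which allows up to 0.201% (3 cells of the total, the limit used for every share of 0), and 8.88% of microglia-like cells (6.86 to 11.3). With values above 0 in place of 2 or more, 7 of the 10 classes were called. The log2 ratio of the shares was then 0.27 in mature oligodendrocyte-like, 0.68 in microglia-like and 0.98 in fibroblast-like cells.

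Classes differed in the level of Hdc as well as in the share of cells. In the knock-in library the level per 10000 was highest in astrocyte-like cells (16.3), followed by fibroblast-like (12.7), mature oligodendrocyte-like (11.9) and Cajal-Retzius-like cells (11.5). Pyramidal-like cells had 7.57 and dentate granule-like cells 7.23, with 6.00 in oligodendrocyte precursor-like, 5.86 in interneuron-like, 5.69 in microglia-like and 4.40 in choroid plexus-like cells. The median value of a knock-in cell was 13 in the astrocyte-like class (highest 34), 4 in the microglia-like class (highest 21) and 3 in the choroid plexus-like class (highest 15). The small classes left out of the comparison had the same direction: the median knock-in value was 13 in 49 mural-like, 8 in 43 endothelial-like and 6 in 40 macrophage-like cells, against a wild-type median of 1 in each, and 10.5 in 14 ependymal-like cells, against 0.

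Wild-type cells with an Hdc value of 1 or 2 were mostly cells with few detected genes. Wild-type cells were split into 4 bins of about equal size by detected genes. In the bin with the fewest detected genes 92.9% had a value of exactly 1, and this share was 36.3%, 1.30% and 0.394% in the following bins. Values of 2 or more were held by 1.25%, 7.34%, 0 and 0 of the cells in these bins, in order of detected genes. Hnmt showed the opposite order, with 0.624% of cells at exactly 1 in the first bin and 15.2% in the last. Knock-in cells were split in the same way into bins of their own, which cover other gene numbers. The first bin held 265 to 2462 detected genes, against 272 to 2327 for wild-type cells. In the knock-in library Hdc reached 2 or more in 92.1%, 94.0%, 95.2% and 96.5% of cells from its first bin to its last. Of the 153 wild-type cells at 2 or more for Hdc, 102 (66.7%) lay in 2 clusters: a microglia-like cluster led by Cst3, Tyrobp and Tmsb4x, where 28.9% of 190 cells reached 2, and an unnamed cluster led by mt-Rnr2, mt-Rnr1 and mt-Co1, where 24.2% of 194 cells did. Without these clusters the wild-type share was 0.760% and the knock-in share 95.1%.

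Defining markers of mast cells, which make histamine, were nearly absent from both libraries. Of 10 mast cell markers, Cpa3, Ms4a2, Gata2 and Kit were in the table. Cpa3, a mast cell protease, reached 2 or more in 1 wild-type and 0 knock-in cells, and Ms4a2, a chain of the high-affinity IgE receptor, in 0 wild-type and 2 knock-in cells. Gata2 reached 2 in 5 wild-type and 7 knock-in cells, while Kit, which is not restricted to mast cells, reached it in 844 and 1149 cells. The summed level of these 4 genes was 0.578 per 10000 for wild-type and 0.628 for knock-in cells, and no cell of either library had 3 of them at 2 or more. Neither of the 2 basophil markers, Mcpt8 and Prss34, was in the table. Of the histaminergic neuron markers other than the members, Prph reached 2 in 0 wild-type and 2 knock-in cells. The others were more widely detected, with Maob at 2 or more in 146 and 145 cells and Hcrtr2 in 151 and 180. Maob, Prph and Hcrtr2 together had a level of 0.213 and 0.242. None of the 9 wild-type cells with an Hdc value of 3 or more had Cpa3 or Ms4a2 above 0. Only 13 wild-type cells had Cpa3 above 0 and 1 had Ms4a2, so this cannot tell whether the 9 are mast cells.

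Over the clusters of the knock-in library, the Hdc level followed that of Malat1, an abundant long noncoding RNA retained in the nucleus. Pearson's r over the 37 clusters of the knock-in library was 0.97 with Malat1 and 0.98 with Gm14216, a long noncoding RNA annotated on chromosome 2 from 154722352 to 154738451. In the wild-type library Pearson's r of Hdc with Malat1 over the clusters was 0.37. The other members' r with Malat1 lay between -0.51 and 0.06 in the 2 libraries. Across the 10 classes of the knock-in library the Hdc level differed 3.70-fold and the Malat1 level 4.91-fold, whereas Hdc as a percentage of Malat1 lay between 2.89% (fibroblast-like) and 4.06% (choroid plexus-like), a range of 1.40-fold. Clusters of 1 library share its depth and its processing, and these correlations are given as a description.

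**Figure D2:**
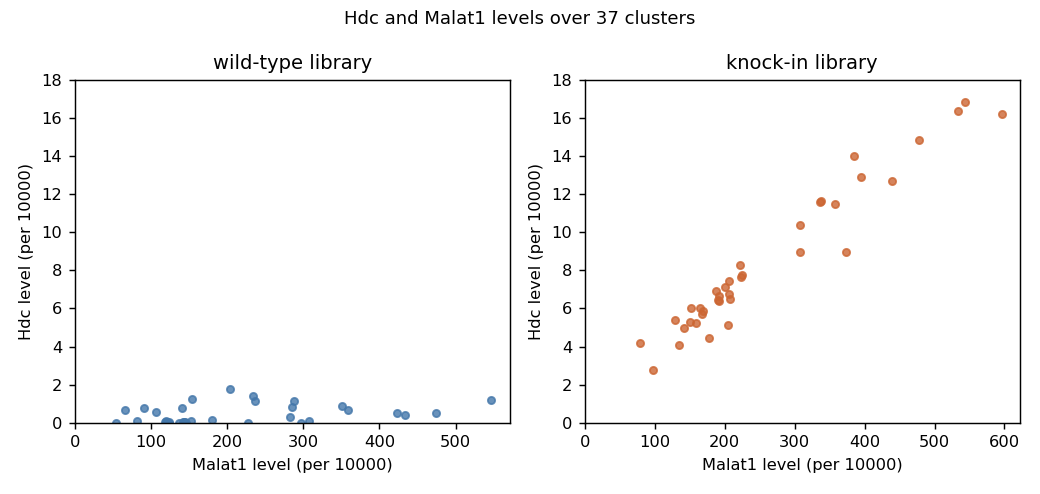
Level of Malat1 (horizontal axis) against level of Hdc (vertical axis), both per 10000 of all values, with 1 point for each of 37 clusters in the wild-type (left) and knock-in library (right). In the knock-in library the points rise together (r = 0.97), and in the wild-type library Hdc stays low in every cluster.

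The pattern of Hdc over the 20 combinations of class and library was most like that of Gm14216, with a Pearson's r of 0.999 for log2 levels among 11132 genes compared. Gm17660 (r = 0.920), Neil3 (0.904), Mapk14 (0.802) and BC048403 (0.770) followed. Each of these genes had a higher level in the knock-in library. The level of Gm14216 was 0.372 per 10000 for wild-type and 8.04 for knock-in cells, and Neil3 had 0.00759 and 0.239. Mapk14, a stress-activated kinase, had 2.21 and 4.18. Since 10 of the points come from each library, a gene that differs between the libraries in every class gives a high r with Hdc. Over the 10 classes of a single library, r of Hdc with Gm14216 was 0.999 for wild-type and 0.988 for knock-in cells. In the wild-type library 2.16% of cells reached 2 for Hdc and 0.183% for Gm14216. The wild-type levels of both genes thus rest mostly on values of 1, which may be filled in.

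The genes next to Hdc did not share its difference. Within 500 kb on either side the annotation lists 22 genes, of which 15 were in the table and 10 had at least 0.5% of cells at 2 or more in 1 library. None of the 10 differed 2-fold in share. Gabpb1, which encodes a subunit of a GA-binding transcription factor and lies 8.14 kb from Hdc at its nearer end, was detected in 7.89% of wild-type and 8.50% of knock-in cells. Slc27a2, a fatty acid transporter gene 5.42 kb away on the other side, was detected in 0.0846% and 0.192% of cells, which is too few to compare. The log2 ratios of the shares, knock-in over wild-type, were 0.09 for Fam227b, 0.16 for Dtwd1, 0.11 for Gabpb1, 0.23 for Gm27003, 0.03 for Usp8, 0.13 for Usp50, 0.03 for Trpm7, 0.10 for Sppl2a, -0.02 for Ap4e1 and 0.41 for Blvra. All 10 lay between -0.02 and 0.41.

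No other member showed a difference like that of Hdc over all cells. By the same rule applied to all cells together, of the 13046 genes that could pass, 148 were called (1.13%), of which 86 had the higher share among knock-in cells (0.659%) and 62 among wild-type cells (0.475%). Of the members, 5 could pass and 1 was called, namely Hdc, which the choice of members used. Hnmt, Slc18a2, Hrh1 and Hrh2 were not called, and Hrh3 was detected in too few cells to pass. The log2 ratio of the shares was 5.45 for Hdc, 0.26 for Hnmt, 0.20 for Slc18a2, 0.44 for Hrh1 and 0.09 for Hrh2, against a median of 0.03 over all genes that could pass. At values above 0 it was 0.45 for Hnmt, 0.31 for Slc18a2, 0.56 for Hrh1, 0.45 for Hrh2 and 0.84 for Hrh3, against a median of 0.24 over the genes that could pass there.

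**Figure D3:**
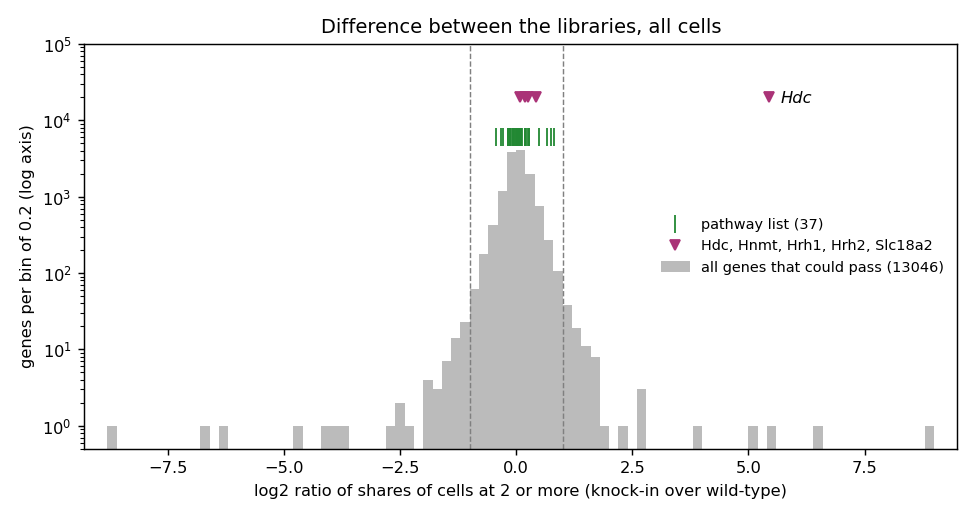
Log2 ratio of the shares of cells at 2 or more, knock-in over wild-type (horizontal axis), as a histogram of the 13046 genes that could pass with a log vertical axis; triangles mark 5 members, ticks mark 37 pathway genes and dashed lines mark 2-fold. Hdc lies at 5.45, while the other 4 members lie between 0.09 and 0.44.

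Slc18a2, the vesicular monoamine transporter, was found at a low level in most classes of both libraries. Over all cells 182 of the wild-type cells (2.57%, 2.21 to 2.96) and 260 of the knock-in cells (2.94%, 2.60 to 3.32) reached 2, and the level was 0.181 and 0.217 per 10000. Microglia-like cells had 4.37% (2.97 to 6.18) for wild-type and 5.62% (4.21 to 7.32) for knock-in cells, the latter the highest of the 10 knock-in classes. In the wild-type library fibroblast-like cells had 4.59% (1.51 to 10.4), on 5 cells, and 2.42% in the knock-in library. Mature oligodendrocyte-like cells had 2.70% and 3.09%, pyramidal-like cells 2.21% and 2.42%, and dentate granule-like cells 2.20% and 3.03%. Astrocyte-like cells had 1.84% and 1.72%. The intervals of the 2 libraries overlapped in all 10 classes, and the share was the higher one in the knock-in library in 6 classes and in the wild-type library in 4.

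Hnmt, the methyltransferase that breaks histamine down, had its highest share in fibroblast-like cells among wild-type and in microglia-like cells among knock-in classes. Over all cells 148 wild-type cells (2.09%, 1.77 to 2.45) and 220 knock-in cells (2.49%, 2.18 to 2.84) reached 2, and the level was 0.141 and 0.184 per 10000. The highest value was 7 in both libraries. Microglia-like cells had 6.40% (4.69 to 8.50) for wild-type and 7.60% (5.96 to 9.52) for knock-in cells, on 44 and 69 cells, and fibroblast-like cells had 9.17% and 3.23%, on 10 and 8 cells. Of the 3 clusters of the microglia-like class, that led by Inpp5d, Arhgap45 and Dock8 had 8.68% and 10.6%. The cluster led by P2ry12, Cx3cr1 and Gpr34 had 7.06% and 8.06%. The remaining cluster, led by Cst3, Tyrobp and Tmsb4x, had lower shares than these in both libraries. Its share was the lower one in the knock-in library, on few cells. Pyramidal-like cells had 2.14% and 2.18%, dentate granule-like cells 1.24% and 1.59%, and astrocyte-like cells 2.84% and 1.72%.

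Hnmt was the only member other than Hdc called in any class. In mature oligodendrocyte-like cells the cells that reached 2 numbered 5 of 1483 in the wild type (0.337%, 0.110 to 0.785) and 15 of 1458 in the knock-in (1.03%, 0.577 to 1.69), in a class where 2.34% of genes were called in this direction. In fibroblast-like cells the direction was opposite, with 10 of 109 in the wild type (9.17%, 4.49 to 16.2) and 8 of 248 in the knock-in (3.23%, 1.40 to 6.26), in a class where 2.2% of genes were called lower among knock-in cells. The intervals of the 2 libraries overlapped in both classes. Over the 5 members other than Hdc, 17 of 50 pairs of gene and class could pass and 2 were called (11.8%). Over all genes, 6119 of 80446 such pairs were called (7.61%), so 2 of 17 is not apart from the background. The call in fibroblast-like cells ended when called doublets were left out, which left 9 wild-type cells at 2 or more and a log2 ratio of -1.32.

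**Figure D4:**
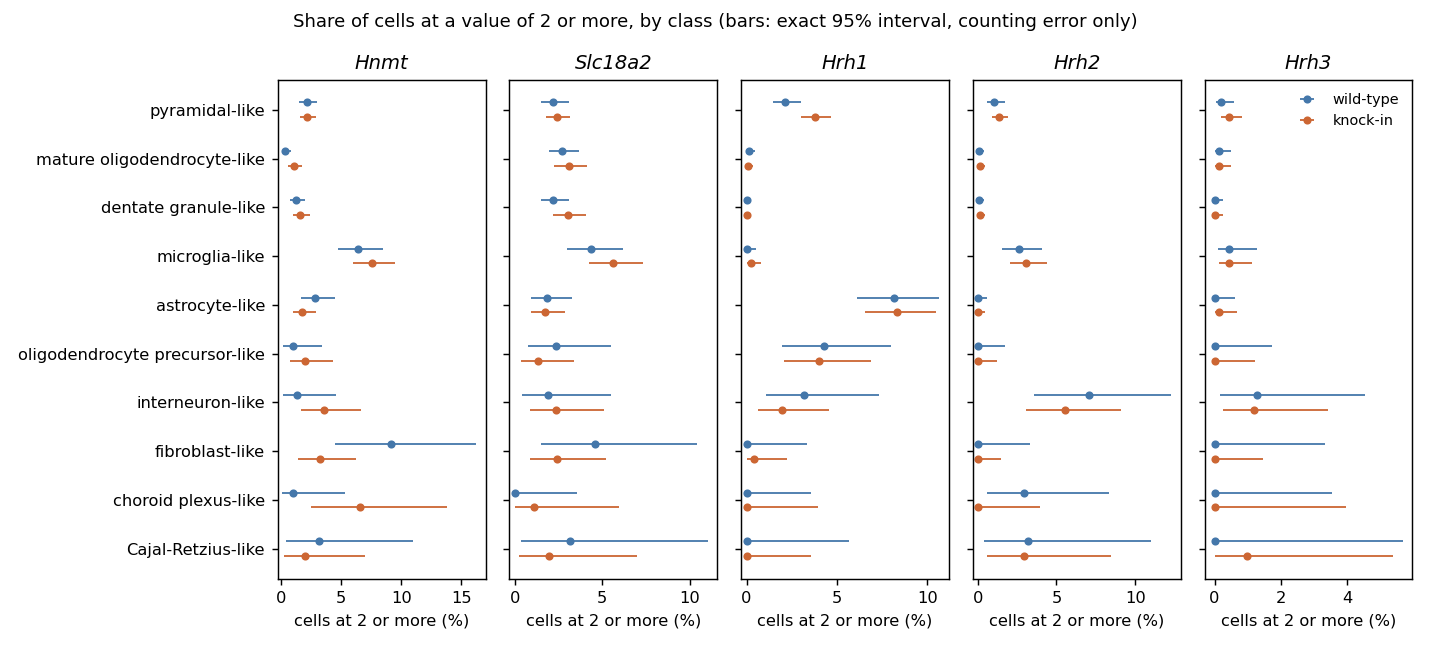
Share of cells at 2 or more (horizontal axis, percent) for 5 members in 10 cell classes, wild-type in blue and knock-in in orange; bars are exact 95% intervals for counting error. In every panel the bars of the 2 libraries overlap in all 10 classes, while shares differ between classes, as for Hrh1 from 0 to 8.34% among knock-in cells.

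Hrh1, the Gq-coupled receptor, had its highest share of the classes in astrocyte-like cells. It was also detected in oligodendrocyte precursor-like cells, interneuron-like cells and some of the pyramidal-like cells. Over all cells 108 wild-type cells (1.52%, 1.25 to 1.84) and 182 knock-in cells (2.06%, 1.77 to 2.38) reached 2, and the level was 0.0865 and 0.118 per 10000. Astrocyte-like cells had 8.18% (6.11 to 10.7) for wild-type and 8.34% (6.54 to 10.5) for knock-in cells, oligodendrocyte precursor-like cells 4.29% and 3.99%, and interneuron-like cells 3.21% and 1.98%. No dentate granule-like cell reached 2 in either library: 0 of 1455 wild-type and 0 of 1451 knock-in cells allow up to 0.206% and 0.207%. Microglia-like cells had 0 of 687, which allows up to 0.437%, and 2 of 908. The median total of deposited values, which are already corrected for depth, was 9950 and 10029 in dentate granule-like and 8119 and 8169 in astrocyte-like cells.

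Pyramidal-like clusters, which were formed without the members, differed in Hrh1 within both libraries. It reached 2 in 15.3% of 111 wild-type and 17.1% of 82 knock-in cells of the cluster led by AC060761.1, Sgcz and Vwc2l. In the cluster led by Gm28928, Rai14 and Cdh18 the shares were 8.57% and 14.7%, and in the cluster led by Unc5d, Fhod3 and Efna5 they were 4.35% and 5.88%. It reached 2 in none of 684 wild-type and 683 knock-in cells of the cluster led by 4921539H07Rik, Galntl6 and Gm10754, and in none of 314 and 369 cells of the cluster led by Nectin3, Ccbe1 and Trhde. These zeros allow up to 0.439% and 0.439% in the first of these and 0.955% and 0.813% in the second. Over all pyramidal-like cells the share was 2.14% (1.47 to 3.01) for wild-type and 3.78% (3.0 to 4.69) for knock-in cells. The cluster led by Unc5d held 138 wild-type and 510 knock-in cells. With 15 principal components the pyramidal-like share was 0.308% and 0.132%, on 4 and 2 cells. With cells thinned to a total of 1000, the share of cells above 0 was 1.74% and 1.5%.

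Hrh2, the Gs-coupled receptor, was detected in interneuron-like and microglia-like cells. Over all cells 74 wild-type cells (1.04%, 0.820 to 1.31) and 98 knock-in cells (1.11%, 0.901 to 1.35) reached 2, and the level was 0.0720 and 0.0903 per 10000. Interneuron-like cells had 7.05% (3.57 to 12.3) for wild-type and 5.53% (3.06 to 9.11) for knock-in cells. Microglia-like cells had 2.62% (1.56 to 4.11) and 3.08% (2.06 to 4.43). Shares near these, on few cells, were 3.17% and 2.97% in Cajal-Retzius-like cells, on 2 and 3 cells. Choroid plexus-like cells had 2.94% for wild-type, on 3 of 102 cells, and 0 of 91 for knock-in cells. Pyramidal-like cells had 1.07% and 1.36%, and the shares in dentate granule-like cells were 0.0687% and 0.138%. No astrocyte-like cell reached 2, with 0 of 599 wild-type and 0 of 815 knock-in cells, which allows up to 0.501% and 0.368%, so among these glia Hrh1 was found in astrocyte-like and Hrh2 in microglia-like cells. The highest shares of any cluster with at least 50 cells in each library, 10.5% of 86 wild-type and 7.69% of 104 knock-in cells, were in an unnamed cluster led by Vwc2l, Cntn6 and Sntb1.

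**Figure D5:**
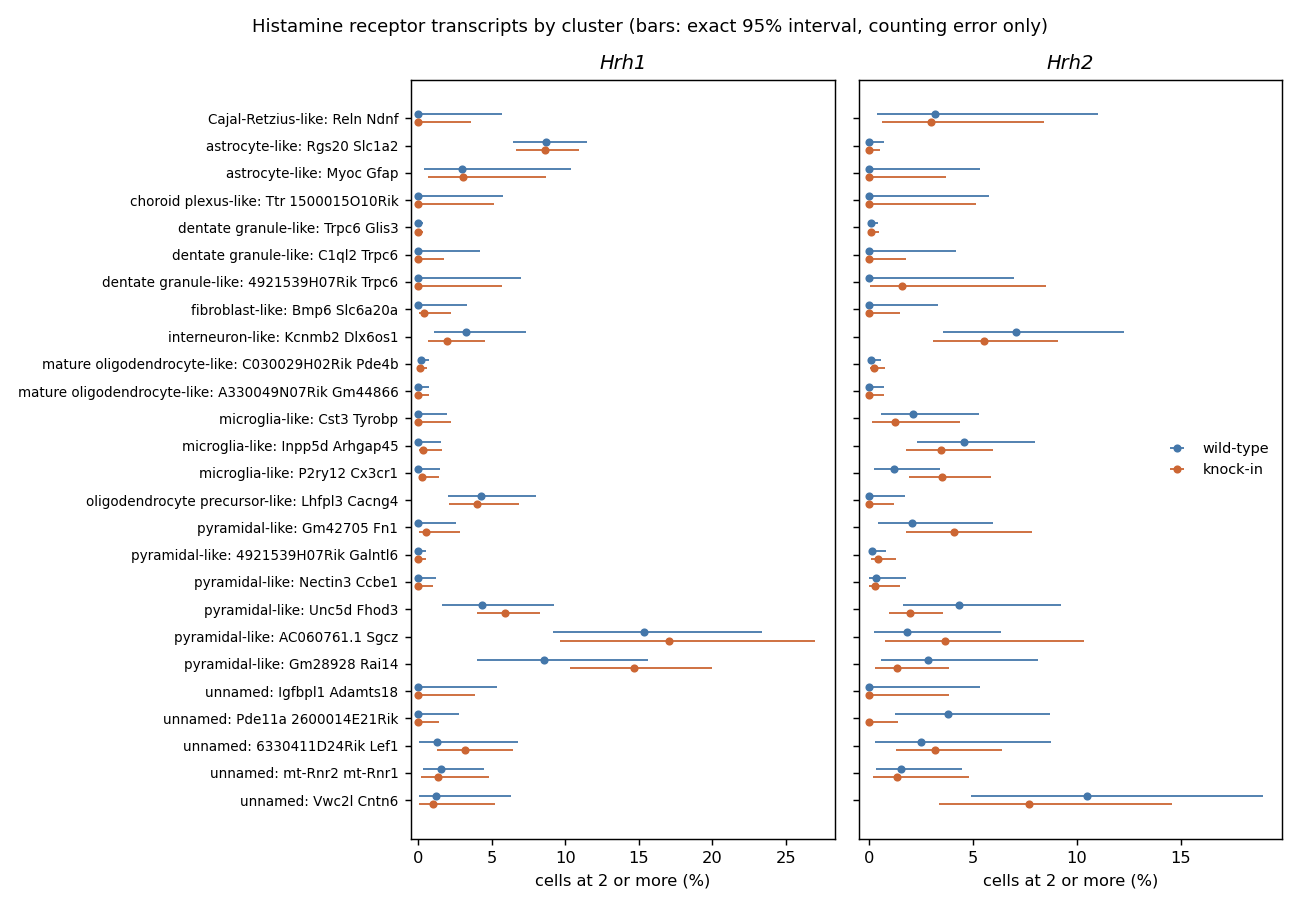
Share of cells at 2 or more for Hrh1 (left) and Hrh2 (right) on the horizontal axes, in percent, for the clusters with at least 50 cells in each library, named by class and leading genes; bars are exact 95% intervals for counting error. Hrh1 is high in 1 astrocyte-like and 3 pyramidal-like clusters, and Hrh2 in the interneuron-like cluster and 1 unnamed cluster, in both libraries. The oligodendrocyte precursor-like cluster has 4.29% of wild-type and 3.99% of knock-in cells for Hrh1, not far below the lowest of these pyramidal-like clusters.

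Hrh3, the Gi- and Go-coupled receptor, was detected in few cells of either library. It reached 2 in 15 wild-type cells (0.211%, 0.118 to 0.349) and 26 knock-in cells (0.294%, 0.192 to 0.431), and the level was 0.0255 and 0.0440 per 10000. Interneuron-like cells had the highest share of the 10 classes, with 1.28% (0.156 to 4.55) for wild-type and 1.19% (0.245 to 3.43) for knock-in cells, on 2 and 3 cells. In 4 classes no cell of either library reached 2. The intervals of the libraries overlapped at values of 2 or more. At values above 0, where a 1 may be filled in, they did not, with 2.06% (1.74 to 2.42) for wild-type and 3.68% (3.30 to 4.09) for knock-in cells. This was not particular to Hrh3, since above 0 the intervals of Hnmt, Slc18a2, Hrh1 and Hrh2 did not overlap either. How often this held over all genes is not given here. Hrh4, a receptor known from blood cells, reached 2 in 1 cell of each library.

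The other genes of the pathway gave no call over all cells. Of 48 listed genes for histidine supply, related enzymes, histamine uptake, breakdown and receptor signalling, all were in the table, 37 could pass and 0 were called, against 1.13% of all genes. Their log2 ratios lay between -0.43 and 0.82 with a median of 0.02, and 22 of the 37 lay above 0. The gene with the highest share in each group is given below.

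Among breakdown genes Aldh7a1, an aldehyde dehydrogenase, was detected in 10.4% of wild-type and 10.6% of knock-in cells. For uptake, Slc29a4, a plasma membrane monoamine transporter, was detected in 8.94% and 6.62%. Slc3a2, the heavy chain of amino acid transporters that carry histidine, was detected in 17.4% and 19.1%. These shares differed by far less than 2-fold. Hars, the histidyl-tRNA synthetase, was detected in 4.50% and 4.57%. Pdxk, the kinase that makes the pyridoxal phosphate cofactor of histidine decarboxylase, was detected in 1.48% and 1.22%. Csad, a related decarboxylase of taurine synthesis, was detected in 19.8% and 23.3%. The signalling genes ranged from rarely to very widely detected. Gna14, another alpha subunit of the Gq family, was detected in 0.437% and 0.385% of cells and is an exception, not the gene of highest share. Gnaq, the alpha subunit of Gq, was detected in 90.2% and 90.6% of cells, Adcy9, an adenylyl cyclase, in 64.1% and 61.0%, and Gnao1, the alpha subunit of Go, in 62.9% and 57.7%.

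Within classes, 13 of 254 pairs of pathway gene and class that could pass were called (5.12%), 10 with the higher share among knock-in and 3 among wild-type cells, against 7.61% of pairs over all genes. The genes named here were chosen after their values were seen. Slc38a3, an amino acid transporter that carries histidine and glutamine, was called in 3 classes: 0 of 1496 wild-type and 13 knock-in pyramidal-like cells (0.629%), 0.539% and 3.29% of mature oligodendrocyte-like cells, and 4.59% and 11.7% of fibroblast-like cells. Gad1, which makes the transmitter GABA, was detected in 0.270% and 1.17% of mature oligodendrocyte-like and in 0.146% and 1.43% of microglia-like cells. Maoa, a monoamine oxidase, was detected in 0.917% and 4.44% of fibroblast-like cells, on 1 and 11 cells.

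The genes whose pattern over the 20 combinations of class and library was most like that of the other members differed from member to member. Hrh1 was most like Shc3 (r = 0.945), Tspan12 (0.943), Gabrg1 (0.942), Gm44593 (0.923) and Ptprt (0.919). Hrh2 was most like Pdcd7 (0.901), Syvn1 (0.900), Nagk (0.880), Tbc1d17 (0.857) and Rassf5 (0.844). Slc18a2 was most like Rnf103 (0.892), Atp6v0a1 (0.873), Zfp157 (0.872), Vps39 (0.869) and Plekhm1 (0.862). Hnmt was most like Khnyn (0.865), St6galnac6 (0.802), BC037034 (0.801), Slc25a37 (0.790) and Idnk (0.786). Hdc was not among the 5 nearest genes of any of them. Over the 10 classes of a single library the lists changed. For Slc18a2 and Hrh2 the 5 nearest genes in the wild-type library and those in the knock-in library had none in common. Hrh1 kept Tspan12 and Gabrg1 in both libraries, and Hnmt kept Khnyn.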

How the data were processed

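The authors deposited 1 table of 30223 gene symbols by 15930 cells, a score of whole numbers corrected for depth by the authors, judging by its deposited name. These are not raw counts, so no count model was used and the sequencing depth is unknown. The submitters' processing notes name Seurat 3.0.0 and the build GRCm38. Which cells had been removed before deposit is not given in the sources used here. The members and lists were chosen with earlier results of these data known, and so was the rule that names clusters.

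Python 3.11.15 and scanpy 1.11.5 scaled each cell to 10000, took 2000 variable genes without the members, the pathway list and sex-linked genes, and clustered on 30 principal components and 15 neighbours at Leiden resolution 1. A marker counted at 25% of cells above 0 and 1.5-fold over the rest, and a name needed at least 3 markers of the class. No name was given if 3 mitochondrial transcripts were among the 10 leading genes, if another class led or reached 60% of the markers held, or if the class was weak (under 40% of markers, none leading). Doublets were kept: Scrublet called 61 wild-type (0.860%) and 209 knock-in cells (2.37%), and leaving these out was an alternative.

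Intervals of shares are exact (Clopper-Pearson, 95%) for counting error and leave out variation between mice. The limit given beside a share of 0 is 3 cells of the total, not the exact bound, and a share of 0 was set to 3 cells for a ratio, and no ratio was taken where both libraries had 3 cells or fewer. Log2 ratios of levels used a pseudocount of 0.1 per 10000. Named pathway genes are those called over all cells, otherwise the gene with the highest share in each group, and exceptions are marked. Genes of like pattern are the 5 of highest Pearson's r with a member among genes with at least 1% of cells at 2 or more in 1 library. Promoter windows are those of RefSeq, and all 6 members had one. The code was tested on simulated data.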

Additional observations from a re-analysis of the deposited data

Results flagged for a closer look

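The ratio of Hnmt between the libraries had opposite directions in 2 classes, with approximate counting intervals clear of 0 in both. These classes were picked by that rule, so the intervals lend the difference no support. The log2 ratio of the shares at 2 or more, knock-in over wild-type, was 1.61 (0.15 to 3.07) in mature oligodendrocyte-like cells, on 5 and 15 cells. It was -1.51 (-2.81 to -0.21) in fibroblast-like cells, on 10 and 8 cells. The exact intervals of the shares overlapped in both classes, and the fibroblast-like ratio was 0.81 at values of 3 or more, on 1 and 4 cells. The difference between the classes was not tested, since each genotype is 1 library.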

How the results depend on the processing

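No paired analysis was possible because each genotype is 1 pooled library. The Hdc log2 ratio of shares over all cells was 5.45, and it was 9.46 at values of 3 or more, 1.51 at values above 0, 3.49 after thinning each cell to a total of 1000 (4.82% and 54.0% of cells above 0), at least 10.14 in cells above the wild-type median of 3122 detected genes (0 wild-type cells at 2 or more) and 6.97 without the 2 clusters named above. The last 2 settings were chosen after seeing the data. The Hdc log2 ratio of levels was 4.08, and it was 5.85 with values of 1 set to 0, 4.34 with a pseudocount of 0.01 and 2.77 with a pseudocount of 1. Hdc kept its direction under all of these.

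The number of classes called was 2 for Hnmt and 1 at values of 3 or more, without called doublets and after thinning. That class differed between the settings. Without called doublets it was mature oligodendrocyte-like. At values of 3 or more it was microglia-like (0.728% and 2.53%, on 5 and 23 cells). After thinning it was dentate granule-like (0.619% and 1.24% above 0, on 9 and 18 cells). Neither of the latter was among the classes called in the main comparison. The number of classes called was 10 for Hdc and 7 at values above 0. It was 0 for Hrh1, Hrh2 and Hrh3, and at values above 0 it was 1, 1 and 3, while thinning gave 3 for Hrh2. The share of all pairs of gene and class called at these other settings is not given here, so nothing is read from these counts. The Hnmt ratio in fibroblast-like cells turned to 0.81 at values of 3 or more, on 1 and 4 cells. All genes called over all cells numbered 148, and 614 at values above 0, 65 with a share of at least 1% and 862 with at least 0.1%. Pathway genes called numbered 0, and 3 at values above 0 (Slc38a3, Slc22a3 and Aoc1) and 2 with a share of at least 0.1% (Slc22a3 and Cndp1). The cause of these changes was not tested. The number of genes that could pass also depends on the setting and is not given here, so nothing is read from the pathway counts. Hrh3 gave no ratio at values of 3 or more, where too few cells were left. The members other than Hdc were each at 2 or more in under 3% of cells of either library, which limits the precision of their ratios.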
